A study of Homo sapiens with 183 samples.

Results

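Genes of the antioxidant response governed by the transcription factor NRF2 were followed across cancer cell lines in which KLF5, RUVBL1, RUVBL2 or a control gene had been knocked out, or in which the ATPase activity of RUVBL1 and RUVBL2 had been inhibited. The genes were taken by name and not by a threshold on their values, but with earlier results of these data known. They were GPX2, NQO1, GCLC, GCLM, TXNRD1, SRXN1, HMOX1, AKR1C1, AKR1B10 and SLC7A11. Of these 10 genes, 9 had a row among the 19875 gene names of the expression tables, and NQO1 was not analysed here. The values were TPM, the share of a library's transcripts that belong to a gene, corrected for transcript length and library size, in 183 libraries of 9 lines.

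In 5 pancreatic cancer lines, AsPC-1, BxPC-3, T3M-4, CFPAC-1 and SUIT-2, cells expressing Cas9 were infected with guide RNAs and collected on day 5. Their controls, sgRosa, carried a guide to the Rosa26 locus. KLF5 is a Krüppel-like zinc finger factor of epithelial cells, and RUVBL1 and RUVBL2 are AAA+ ATPases that work together in one complex. SUIT-2 held 4 sgRosa and 4 sgKLF5 libraries. CFPAC-1 held 4 sgRosa, 3 sgKLF5, 4 sgRUVBL1, 2 sgRUVBL2, 2 sgCDK1 and 2 sgRpa3 libraries, CDK1 and RPA3 being genes that dividing cells need. The other lines were run in several experiments, each with its own sgRosa libraries. AsPC-1 experiment 1 held 2 sgRosa and 6 sgKLF5 libraries. Experiment 2 held 4 each of sgRosa, sgRUVBL1 and sgSERPINB5, SERPINB5 being a KLF5-dependent serpin. Experiment 3 held 4 each of sgRosa, sgKLF5, sgRUVBL1 and sgRUVBL2 and 2 each of sgCDK1 and sgRpa3, and a separate set held 4 sgRosa and 4 sgCHD4 libraries, CHD4 being a chromatin remodeler. In BxPC-3 and in T3M-4, experiment 1 held 2 sgRosa, 4 sgKLF5 and 2 sgRpa3 libraries. Experiment 2 held 4 sgRosa, 4 sgKLF5, 2 sgCDK1 and 2 sgRpa3 libraries in both lines, with 4 sgRUVBL1 and 3 sgRUVBL2 in BxPC-3 and 3 sgRUVBL1 and 4 sgRUVBL2 in T3M-4.

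The inhibitor CB-6644, which blocks the RUVBL1/2 ATPase, was given for 24 h. AsPC-1 and T3M-4 cells selected with G418 stably expressed an empty vector (EV), RUVBL1 with the A62T substitution or RUVBL2 lacking F109 (dF109), both made as inhibitor-resistant variants. Each vector had 1 DMSO and 3 CB-6644 libraries, so the 3 DMSO libraries of a line served together as its control. T84 colorectal carcinoma, A375 melanoma, H1048 small cell lung carcinoma and RH30 rhabdomyosarcoma cells had 4 DMSO and 4 CB-6644 libraries each. These are pools of infected or selected cells of single lines. The study calls repeats within a guide biological replicates, while the sample labels do not say whether they were separate cultures. By its methods the KLF5, RUVBL1, RUVBL2 and Rosa26 groups combine 2 guides, and the labels do not tie a library to its guide, so the p-values measure the spread over guides and repeats together.

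NRF2, encoded by NFE2L2, is held low by the KEAP1-CUL3 ubiquitin ligase and accumulates when oxidants or electrophiles modify KEAP1. With a small MAF partner (MAFF, MAFG or MAFK) it binds antioxidant response elements, some of which BACH1 represses. Its targets make glutathione (GCLC and GCLM, the catalytic and modifier subunits of glutamate-cysteine ligase), bring in cystine for it (SLC7A11, which ATF4 also drives), reduce thioredoxin and peroxiredoxins (TXNRD1 and SRXN1), break down heme (HMOX1) and reduce carbonyls and steroids (AKR1C1 and AKR1B10). GPX2 is a glutathione peroxidase of gut-type epithelium.

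The promoters of the measured genes were searched for the core of that element, TGACNNNGC on either strand, between 250 bases before and 50 bases after each RefSeq start site (GRCh38.p14). The core was in 13.3% of the 35116 promoters in the table. Entries existed for 7 of the 10 genes. The core was found for GPX2, GCLM and TXNRD1, and no match was found in the windows of NQO1, GCLC, SRXN1 and AKR1C1. The matches are shown because GPX2, GCLM and TXNRD1 all carry the core and yet moved in different directions in the comparisons that follow. Each stretch is written 5′ to 3′ on the strand of the gene, with the match in capitals.
GPX2, chr14:64942848-64942877, minus strand, 122 bases before the start site: acctgtttttGCTAAGTCAtcctggggatg
GCLM, chr1:93909445-93909474, minus strand, 34 bases before the start site: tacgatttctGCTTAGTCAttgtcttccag
TXNRD1, first start site, chr12:104215670-104215699, plus strand, 99 bases before: acacgggctaTGACTTCGCtgttgtcaccg
TXNRD1, first start site, chr12:104215761-104215790, plus strand, 8 bases before: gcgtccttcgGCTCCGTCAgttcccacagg
TXNRD1, second start site, chr12:104286920-104286949, plus strand, 102 bases before: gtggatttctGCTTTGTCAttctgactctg
A match describes these letters only and is not evidence of binding. In GRCh38, GPX2 spans chr14:64939152-64942746, GCLC chr6:53497341-53616970, GCLM chr1:93885199-93909456 and SLC7A11 chr4:138164097-138242349, all on the minus strand. TXNRD1 spans chr12:104215779-104350307, HMOX1 chr22:35380361-35394214, AKR1C1 chr10:4963253-4983283 and AKR1B10 chr7:134527567-134541412 on the plus strand, and SRXN1 spans chr20:646615-653200 on the minus strand. Values were summed over all transcripts of a gene.

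Every library had the same TPM total, so the read depth is unknown, and between 11292 and 14024 genes per library reached 1 TPM. At a median of 1 TPM or more, all pancreatic lines and T84 held the 4 epithelial markers EPCAM, KRT8, KRT18 and KRT19, T84 also all 3 colorectal, A375 4 of 5 melanocytic, H1048 2 of 3 tuft and RH30 all 3 skeletal muscle markers. AsPC-1 and CFPAC-1 held all 3 colorectal markers too, with CDH17 at 836 TPM in AsPC-1 and 376 TPM in T84. In A375 the medians were 206 TPM for SOX10, 11.6 for MITF, 2.13 for PMEL and 1.44 for MLANA. MITF was at 23.2 TPM in CFPAC-1 and PMEL at 14.3 TPM in SUIT-2, so these counts alone do not identify a line. RUVBL1 was at 27.4 to 53.7 TPM in its own knockouts against 79.5 to 175 TPM in their sgRosa libraries, and RUVBL2 at 31.4 to 128 TPM against 92.0 to 256 TPM. KLF5 and CHD4 mRNA were not lowered throughout, and a guide need not lower mRNA, so their level does not check the labels. In CFPAC-1 the library labelled sgRosa replicate 2 resembled the sgKLF5 libraries: its mean correlation was 0.9909 with them and 0.9848 with the other sgRosa libraries, and its SERPINB5 was 59.8 TPM against 169 to 193 TPM in the other sgRosa and 57.6 to 69.3 TPM in the sgKLF5 libraries. The CFPAC-1 libraries labelled sgCDK1 held 194 to 207 TPM of CDK1, and those labelled sgRpa3 held 81.0 and 91.9 TPM, against 206 to 236 TPM in sgRosa. RPA3 was at 27.9 and 32.7 TPM in the libraries labelled sgCDK1, 30.3 and 31.7 TPM in those labelled sgRpa3 and 33.2 to 45.7 TPM in sgRosa. Whether these labels were exchanged was not tested. In T3M-4 experiment 1, sgKLF5 replicate 2 correlated least with its group of all libraries (mean r 0.9444), followed by SUIT-2 sgRosa replicate 1 (0.9578) and SUIT-2 sgKLF5 replicate 4 (0.9601). The counts for KLF5 loss and for the control knockouts are given with and without these libraries where they are described. Among 31-base words of the transcripts, SRXN1 shared 90.6% with 1 overlapping gene model, AKR1C1 31.8% with other genes, chiefly AKR1C2, and AKR1B10 31.5%, chiefly with AKR1B15, so the assignment of reads to these 3 genes is uncertain. In bulk libraries, fewer cells with a transcript and less of it per cell cannot be told apart.

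The 9 genes were not at one common level in untreated cells. TPM can be compared between genes because they are per length. TXNRD1 was abundant in every line, with medians between 72.5 TPM in RH30 and 312 TPM in T84, whereas HMOX1 did not exceed a median of 43.7 TPM. The lines sat in separate tables, so the following order is a description with no test.

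**Figure D1:**
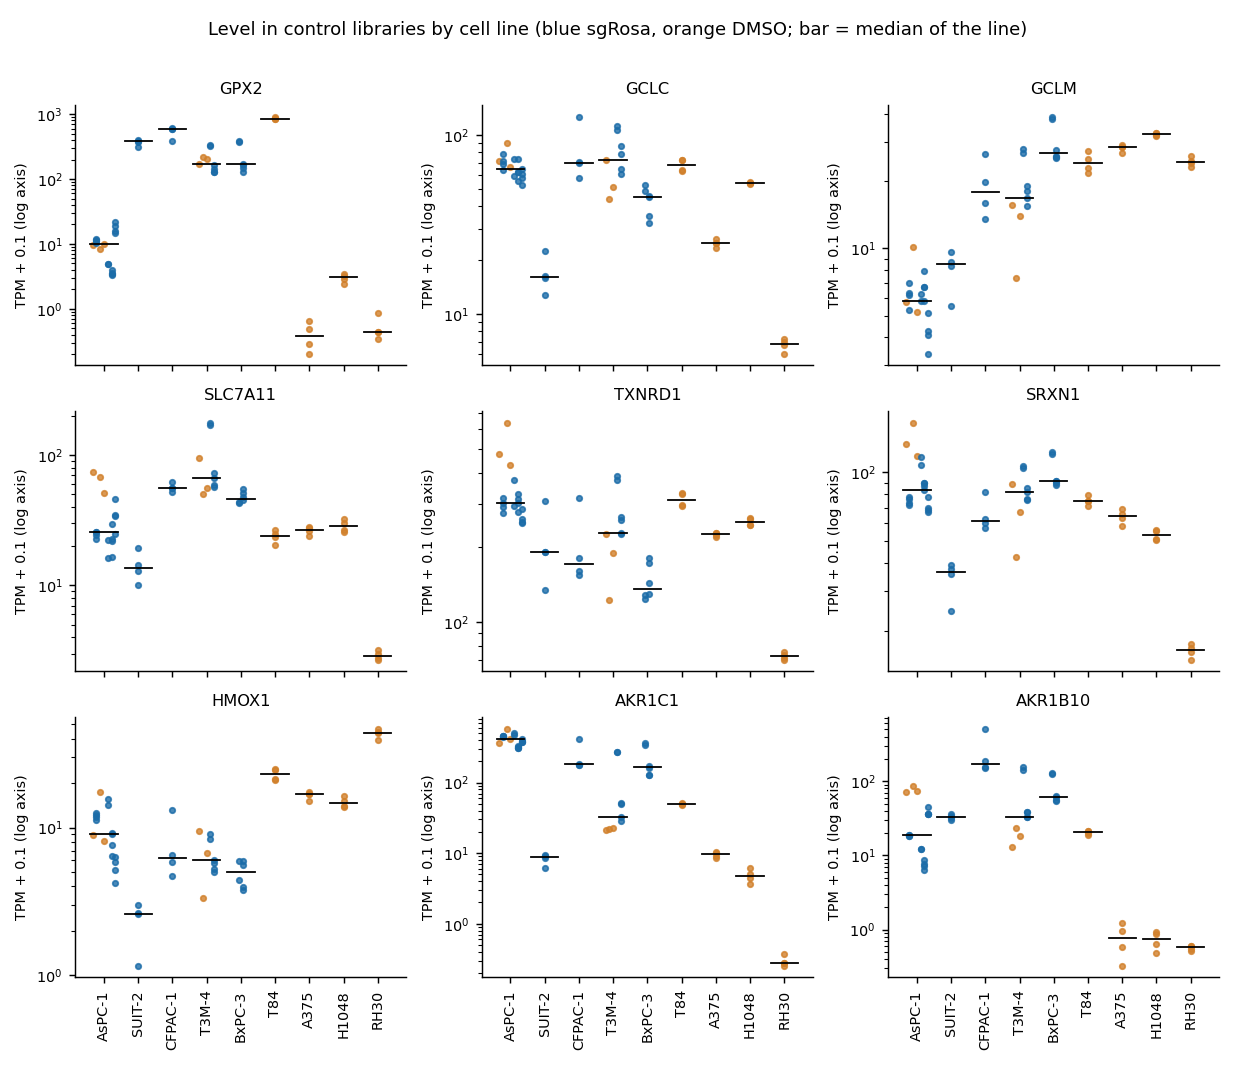
TPM + 0.1 on a log axis of each of the 9 genes in every control library (points; blue sgRosa, orange DMSO) by cell line, with the median of the line as a bar; separate columns of points within a line are separate experiments or sets. GPX2 spans from 0.287 TPM in A375 to 856 TPM in T84, while SRXN1 and TXNRD1 stay within a narrower band, and RH30 has the lowest median for 6 of the 9 genes.

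GPX2, the epithelial peroxidase, varied most between lines. Its 4 T84 libraries ran from 841 to 903 TPM, the CFPAC-1 libraries from 380 to 604 TPM and the SUIT-2 libraries from 316 to 394 TPM. T3M-4 and BxPC-3 overlapped, with medians of 171 and 168 TPM. AsPC-1 stood below the other pancreatic lines without overlap, with a median of 9.87 TPM over 17 libraries. GPX2 was at 2.301 to 3.32 TPM in H1048 and under 1 TPM in every DMSO library of RH30 and A375.

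Of the glutathione genes, GCLC was highest in T3M-4 (median 72.4 TPM), followed by CFPAC-1, T84, AsPC-1 and H1048 (53.8 TPM), each overlapping the next in this order. BxPC-3 (median 45.2 TPM), A375 (24.7 TPM), SUIT-2 (16.0 TPM) and RH30 (6.71 TPM) came next, each without overlap with the line just before it, although BxPC-3 overlapped AsPC-1 and T3M-4. Its partner GCLM had another order by median, with H1048 highest (32.4 TPM, libraries at 31.7 to 32.8 TPM) and AsPC-1 lowest (5.73 TPM). Single BxPC-3 libraries reached up to 38.6 TPM. The order of H1048 against A375 and T84 turned under another scaling of the libraries. RH30 thus held little GCLC but 23.1 to 25.9 TPM of GCLM. SLC7A11, the cystine importer, was highest in T3M-4 (median 66.4 TPM), CFPAC-1 (55.7 TPM) and BxPC-3 (45.9 TPM), which overlapped in this order, and lowest in RH30 at 2.60 to 3.13 TPM.

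SRXN1, which repairs peroxiredoxins, had medians of 91.5 TPM in BxPC-3, 83.99 TPM in AsPC-1 and 82.0 TPM in T3M-4 with overlap, and was lowest in RH30 at 14.9 to 17.5 TPM. HMOX1 ran the other way: RH30 was highest at 39.3 to 46.3 TPM, then T84 at 20.8 to 24.7 TPM, and SUIT-2 was lowest at 1.06 to 2.90 TPM. The reductase AKR1C1 ranged from a median of 410 TPM in AsPC-1 through 182 TPM in CFPAC-1 and 165 TPM in BxPC-3 to under 1 TPM in RH30. AKR1B10 was highest in CFPAC-1, where the library labelled sgRosa replicate 2 held 504 TPM and the others 150, 156 and 185 TPM.

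Experiments of one line differed in these baselines. In AsPC-1, GPX2 was at 4.83 TPM in both sgRosa libraries of experiment 1, 3.22 to 3.90 TPM in experiment 2, 14.5 to 21.9 TPM in experiment 3 and 10.3 to 12.02 TPM in the CHD4 set, with no overlap between these sets. AKR1B10 moved likewise, from 6.30 to 8.64 TPM in experiment 2 to 35.8 to 44.9 TPM in experiment 3. In T3M-4, AKR1C1 was at 270 and 271 TPM in experiment 1 and at 28.7 to 51.6 TPM in experiment 2. Each knockout was therefore compared with the sgRosa libraries of its own experiment.

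The 4 non-pancreatic lines shared a table, which allowed a test. Of 54 pairs of lines and genes, 47 differed (limma, adjusted p under 0.05), against 87% of all pairs of lines and genes tested.

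Loss of KLF5 moved several of these genes. In 8 comparisons of sgKLF5 with sgRosa, 29 of 72 tests gave a higher and 6 a lower level (limma, adjusted p under 0.05 across all genes). AKR1C1 rose in 7 of the 8 comparisons, TXNRD1 in 5, GCLC and HMOX1 in 4 each, SRXN1 in 3, GCLM in 2 and SLC7A11 in 1. GPX2 fell in 3 and rose in none, and AKR1B10 rose in 3 and fell in 3. Without the CFPAC-1 library labelled sgRosa replicate 2 the totals were 31 higher and 6 lower, and without sgKLF5 replicate 2 of T3M-4 experiment 1 they were 32 and 7. The shares of all genes called in these refits were not counted. The comparisons in one experiment share their sgRosa libraries with the other knockouts of that experiment.

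Counted by comparison, the share of members that rose usually exceeded that of all genes. In AsPC-1, 5 of 9 rose and 0 fell in experiment 1, against 17.1% and 8.81% of all genes, and 5 rose and 1 fell in experiment 3, against 15.4% and 12.3%. In T3M-4, 1 rose and 0 fell in experiment 1, against 3.26% and 2.46%, and 6 rose and 1 fell in experiment 2, against 23.4% and 11.2%. In BxPC-3, 5 rose and 0 fell in experiment 1, against 8.09% and 8.1%, and 2 rose and 1 fell in experiment 2, against 21% and 13.6%, close to the background. CFPAC-1 had 5 higher and 1 lower, against 3.26% and 13%, and SUIT-2 had 0 higher and 2 lower, against 2.94% and 1%. Under median-of-ratios scaling of the libraries, AsPC-1 experiment 1 had 4 higher and 1 lower, beside 1743 and 1725 of 11856 genes. Experiment 3 had 5 and 1 (1861 and 1858 of 12224). T3M-4 had 1 and 1 in experiment 1 (1202 and 1338 of 12636). In experiment 2 it had 5 and 1 (2222 and 2767 of 13246). BxPC-3 had 5 and 0 (1119 and 1157 of 12398), then 2 and 2 (2260 and 2257 of 12380). CFPAC-1 had 6 and 0 (1075 and 879 of 12748), and SUIT-2 0 and 2 (495 and 334 of 12585). The median log2 fold change of the 9 members against that of all genes was 0.52 against 0.08 in AsPC-1 experiment 1, 0.31 against 0.02 in AsPC-1 experiment 3, 0.37 against 0.10 in T3M-4 experiment 2, 0.41 against -0.02 in BxPC-3 experiment 1 and 0.58 against -0.11 in CFPAC-1. It was 0.10 against 0.05 in BxPC-3 experiment 2 and 0.27 against 0.18 in SUIT-2. In T3M-4 experiment 1 the members lay at -0.29 and all genes at -0.22. In simulated data, log2 changes of 1 were found for 35.5% of the changed genes in SUIT-2 and 0% in T3M-4 experiment 1. A missing call in these 2 comparisons is thus no sign of a missing change. Fold changes here are differences of log2(TPM + 1), which understate the change of genes at low levels.

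AKR1C1, an aldo-keto reductase of steroids and lipid aldehydes, gave the most regular response. In BxPC-3 experiment 1 it was at 345 and 362 TPM in sgRosa and at 1613, 1778, 1941 and 2094 TPM in sgKLF5, a log2 fold change of 2.38 (SE 0.10, adjusted p = 4.15e-07). In BxPC-3 experiment 2 it went from 127, 128, 160 and 169 TPM to 328, 392, 474 and 562 TPM, a log2 fold change of 1.56 (SE 0.16, adjusted p = 7.15e-07). All sgKLF5 libraries of both experiments lay above all of their sgRosa libraries. In T3M-4 it rose by 1.11 in each of the 2 experiments on the log2 scale (SE 0.19 and 0.15, adjusted p = 0.0177 and 1.19e-05), and in AsPC-1 by 0.52 and 0.57 (SE 0.09 in both, adjusted p = 0.00249 and 4.62e-05). SUIT-2, where AKR1C1 is scarce, was the exception: 6.06, 8.48, 8.96 and 9.29 TPM in sgRosa stood beside 5.08, 5.33, 5.75 and 6.68 TPM in sgKLF5 (log2 fold change -0.44, SE 0.20, adjusted p = 0.307). Under another scaling of the libraries the calls of AsPC-1 experiment 1 and T3M-4 experiment 1 were lost, with adjusted p = 0.0565 and 0.063. The AKR1C1 call of T3M-4 experiment 1 was also lost without either sgRosa library or sgKLF5 replicate 1 (adjusted p up to 0.205).

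GPX2 fell in AsPC-1 experiment 3, SUIT-2 and CFPAC-1, the CFPAC-1 call being lost under another scaling, and gave no call in the other 5 comparisons. In AsPC-1 experiment 3 it was at 14.5, 15.8, 18.7 and 21.9 TPM in sgRosa and at 3.22, 3.27, 4.87 and 4.97 TPM in sgKLF5, so that it fell by 1.89 on the log2 scale (SE 0.23, adjusted p = 3.3e-06). In SUIT-2 it went from 316, 377, 385 and 394 TPM to 36.6, 39.3, 54.8 and 65.3 TPM and fell by 2.92 (SE 0.19, adjusted p = 0.000116). The groups did not overlap in either line. In AsPC-1 experiment 1, where both sgRosa libraries were already at 4.83 TPM, the 6 sgKLF5 libraries ran from 3.87 to 6.65 TPM on both sides of them (SE of the log2 fold change 0.17, adjusted p = 0.998). T3M-4 and BxPC-3 gave no call in any of their 4 comparisons, with BxPC-3 experiment 1 at 374 and 386 TPM in sgRosa and 382, 397, 465 and 465 TPM in sgKLF5.

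**Figure D2:**
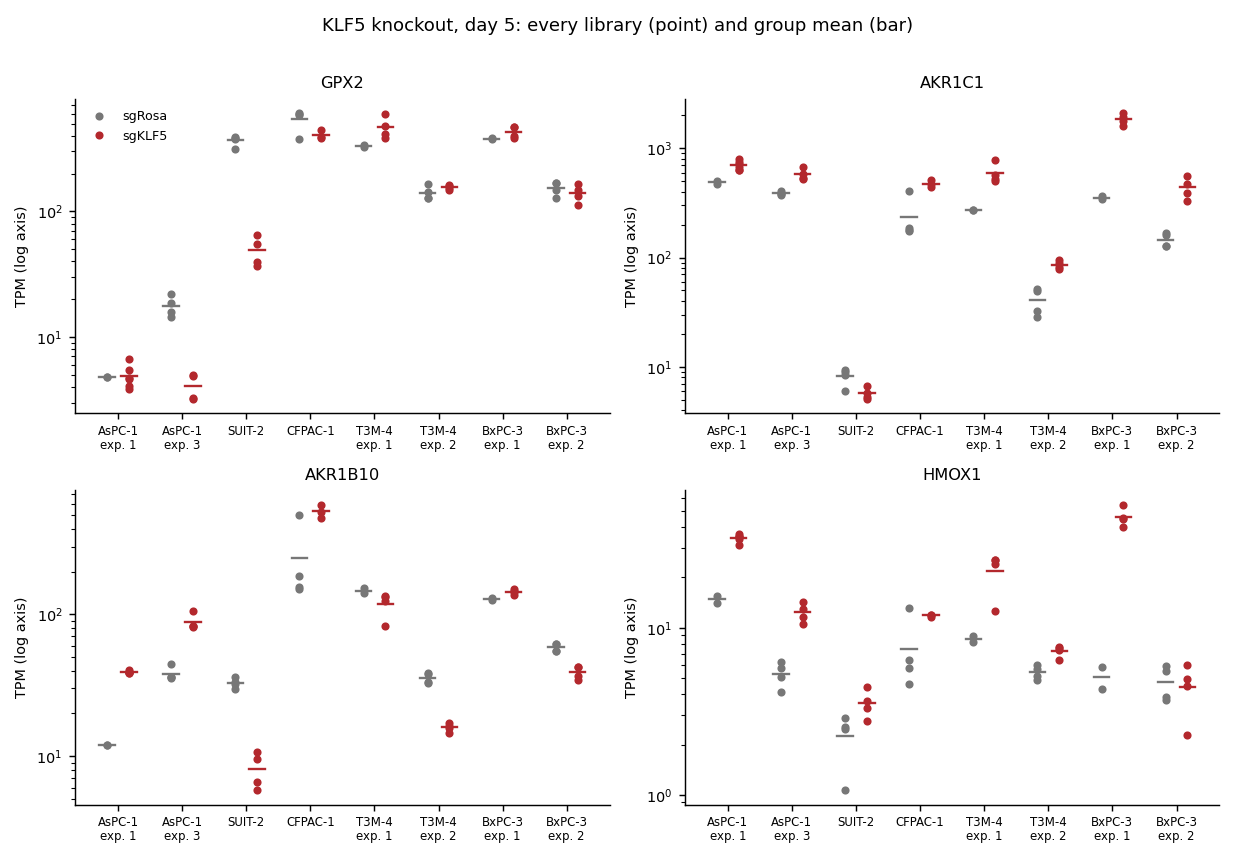
TPM on a log axis of GPX2, AKR1C1, AKR1B10 and HMOX1 in every sgRosa (grey) and sgKLF5 (red) library of the 8 KLF5 comparisons, with the group mean as a bar. The sgKLF5 points of GPX2 lie far below sgRosa in AsPC-1 experiment 3 (3.22 to 4.97 against 14.5 to 21.9 TPM) and SUIT-2, AKR1C1 lies above sgRosa everywhere but in SUIT-2, AKR1B10 changes direction between lines, and 1 grey CFPAC-1 point, the library labelled sgRosa replicate 2, lies beside the sgKLF5 points rather than the other grey ones for each gene.

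AKR1B10, a retinal and aldehyde reductase, changed in opposite directions. In AsPC-1 experiment 1 it rose from 11.9 and 12.1 TPM to between 38.3 and 40.5 TPM in the 6 sgKLF5 libraries (log2 fold change 1.63, SE 0.07, adjusted p = 2.18e-07). In AsPC-1 experiment 3 it rose from 35.8, 35.9, 36.1 and 44.9 TPM to 81.1, 82.4, 82.5 and 105 TPM (log2 fold change 1.18, SE 0.11, adjusted p = 9.61e-08). The opposite was seen in T3M-4 experiment 2, from 33.0, 33.2, 38.2 and 38.6 TPM to 14.7, 15.8, 16.4 and 17.1 TPM (log2 fold change -1.11, SE 0.10, adjusted p = 1.26e-07). In SUIT-2 it fell from 29.6, 32.2, 33.5 and 36.3 TPM to 5.75, 6.57, 9.48 and 10.8 TPM (log2 fold change -1.92, SE 0.22, adjusted p = 0.0018), and in BxPC-3 experiment 2 by 0.57 on the log2 scale (SE 0.15, adjusted p = 0.00641). None of these groups overlapped.

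HMOX1, which frees iron and biliverdin from heme, gave the largest single change of a member that rose. In BxPC-3 experiment 1 it was at 4.32 and 5.86 TPM in sgRosa and at 40.2, 44.8, 45.2 and 54.5 TPM in sgKLF5 (log2 fold change 2.96, SE 0.17, adjusted p = 2.76e-06). In experiment 2 of the same line it was at 3.68, 3.84, 5.48 and 5.89 TPM in sgRosa and at 2.27, 4.51, 4.96 and 5.99 TPM in sgKLF5, with overlapping groups (log2 fold change -0.11). Both AsPC-1 experiments gave a rise, from 14.2 and 15.4 TPM to between 31.1 and 36.5 TPM in experiment 1 (log2 fold change 1.17, SE 0.09, adjusted p = 6.13e-06) and from 4.13, 5.08, 5.72 and 6.26 TPM to 10.6, 11.6, 13.0 and 14.3 TPM in experiment 3 (1.09, SE 0.17, adjusted p = 7.5e-05). In T3M-4 experiment 2 it rose by 0.36 (SE 0.11, adjusted p = 0.0194), a call lost under another scaling (adjusted p = 0.101) and, for HMOX1, without sgKLF5 replicate 3 (adjusted p = 0.0548).

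For the glutathione genes, GCLC rose in T3M-4 experiment 2 from 60.6, 64.6, 78.0 and 87.1 TPM to 139, 140, 146 and 156 TPM (log2 fold change 1.01, SE 0.09, adjusted p = 8.5e-08). In BxPC-3 experiment 1 it rose from 48.8 and 52.4 TPM to 87.1, 102, 119 and 119 TPM (1.06, SE 0.14, adjusted p = 0.000568), and in AsPC-1 experiment 3 by 0.31 (SE 0.08, adjusted p = 0.00415). The modifier subunit GCLM rose less, by 0.54 in AsPC-1 experiment 1 (SE 0.16, adjusted p = 0.029) and 0.37 in T3M-4 experiment 2 (SE 0.09, adjusted p = 0.00403), the GCLM call of AsPC-1 being lost without any 1 of 6 of its 8 libraries (adjusted p up to 0.196). SLC7A11 rose in T3M-4 experiment 2, from 57.0, 58.9, 66.4 and 72.1 TPM to 82.0, 82.8, 86.8 and 89.9 TPM (0.42, SE 0.13, adjusted p = 0.0138). In the other 7 comparisons its log2 fold change lay between -1.59 and 0.38 with no call.

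Of the thioredoxin genes, TXNRD1 rose by 0.70 and 0.78 in AsPC-1 experiments 1 and 3 (SE 0.12 and 0.09, adjusted p = 0.00177 and 2.35e-06), by 0.53 in T3M-4 experiment 2 (SE 0.08, adjusted p = 0.000105) and by 0.74 in BxPC-3 experiment 1 (SE 0.15, adjusted p = 0.00784). Its levels in AsPC-1 experiment 3 were 249, 252, 261 and 285 TPM in sgRosa and 419, 451, 456 and 480 TPM in sgKLF5, without overlap. SRXN1 rose in both BxPC-3 experiments, by 0.41 and 0.34 (SE 0.08 and 0.05, adjusted p = 0.00512 and 3.29e-05), and in experiment 2 went from 87.8, 89.97, 91.1 and 91.8 TPM to 112, 112, 113 and 121 TPM. In BxPC-3 experiment 1 the calls of TXNRD1 and SRXN1 were lost without either sgRosa library (adjusted p up to 0.0817 and 0.0741).

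In CFPAC-1, AKR1C1 rose by 1.1 (SE 0.20, adjusted p = 0.00475) and AKR1B10 by 1.29 (SE 0.28, adjusted p = 0.00788). GCLC, TXNRD1 and SRXN1 rose by 0.58, 0.66 and 0.38 (adjusted p = 0.0348, 0.0234 and 0.0308), and GPX2 fell by 0.40 (SE 0.12, adjusted p = 0.0385). These last 4 calls were each lost without any 1 of 4 to 6 of the libraries other than that labelled sgRosa replicate 2, with adjusted p up to 0.122 for GCLC, 0.101 for TXNRD1, 0.14 for SRXN1 and 0.136 for GPX2. Without the library labelled sgRosa replicate 2, 7 members were higher and 1 lower: AKR1B10 by 1.70, AKR1C1 by 1.4, HMOX1 by 0.97 (adjusted p = 0.000684), TXNRD1 by 0.90, GCLC by 0.81, SRXN1 by 0.49 and GCLM by 0.45 (adjusted p = 0.0276), with GPX2 at -0.56. The share of all genes called without that library was not counted, so these counts were not set against all genes. That library held 316 TPM of TXNRD1 and 409 TPM of AKR1C1, where the other 3 sgRosa libraries held 154, 161 and 182 TPM and 176, 178 and 186 TPM and the sgKLF5 libraries 267, 309 and 355 TPM and 443, 474 and 509 TPM.

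In T3M-4 experiment 1, sgKLF5 replicate 2 was low for most members. It held 58.5 TPM of GCLC and 77.2 TPM of TXNRD1, where the other sgKLF5 libraries held 200, 283 and 298 TPM and 291, 428 and 431 TPM. Without it, 4 members were higher and 1 lower in place of 1 and 0: GCLC at a log2 fold change of 1.22 (adjusted p = 0.000562), HMOX1 at 1.44 (adjusted p = 0.000519), AKR1C1 at 0.97 (adjusted p = 0.000103) and GPX2 at 0.34 (adjusted p = 0.0243) rose, and SLC7A11 at -1.18 (adjusted p = 0.00392) fell. The share of all genes called without this library was not counted. A gain of the members thus cannot be told from a gain over all genes. In SUIT-2, GPX2 was at -2.90 without sgRosa replicate 1 and at -3.07 without sgKLF5 replicate 4, and AKR1B10 at -1.93 and -2.06. The number of calls there was 2 either way, and SLC7A11 of sgKLF5 replicate 4 was 2.80 TPM beside 16.2, 18.4 and 20.4 TPM in the others.

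The effect of KLF5 loss differed between lines for 6 of the 9 members, by an F test over AsPC-1 experiment 3, T3M-4 experiment 2, BxPC-3 experiment 2, CFPAC-1 and SUIT-2, against 41.3% of all genes. The range between the lowest and the highest log2 fold change was 3.22 for AKR1B10 (adjusted p = 1.42e-10), 3.08 for GPX2 (adjusted p = 8.98e-13), 2.01 for AKR1C1 (adjusted p = 6.1e-06), 1.2 for HMOX1 (adjusted p = 0.0251), 0.78 for GCLC (adjusted p = 0.0294) and 0.53 for SRXN1 (adjusted p = 0.00944). GCLM, TXNRD1 and SLC7A11 gave no call, with ranges of 0.26, 0.68 and 0.70. Without the CFPAC-1 library labelled sgRosa replicate 2, TXNRD1 differed too, with a range of 0.79 (adjusted p = 0.0146), as it did without SUIT-2 sgRosa replicate 2 (adjusted p = 0.0158), and without SUIT-2 sgKLF5 replicate 4 SLC7A11 differed (adjusted p = 0.00621). The calls of HMOX1 and GCLC were lost without any 1 of 5 and 4 libraries, with adjusted p up to 0.0606 and 0.0809.

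The effect also differed between experiments of one line. In AsPC-1, 1 of 9 members differed, against 4.28% of all genes: GPX2, by -1.88 on the log2 scale between experiments 1 and 3 (SE 0.33, adjusted p = 0.00066). In T3M-4, 3 differed, against 17.4%: SLC7A11 by 2.01 (SE 0.42, adjusted p = 0.00542), HMOX1 by -0.84 (adjusted p = 0.0456) and AKR1B10 by -0.78 (adjusted p = 0.022). In BxPC-3, 5 differed, against 16.7%: HMOX1 by -3.06 (SE 0.29, adjusted p = 9.38e-08), GCLC by -0.83 (adjusted p = 0.00844), AKR1C1 by -0.82 (adjusted p = 0.0155), AKR1B10 by -0.74 (adjusted p = 0.0173) and TXNRD1 by -0.64 (adjusted p = 0.0154). All 5 were lower in the effect of experiment 2. Without sgRosa replicate 1 of BxPC-3 experiment 1 the adjusted p was 0.0616 for GCLC, 0.082 for AKR1C1, 0.0847 for AKR1B10 and 0.0586 for TXNRD1, and HMOX1 alone kept its call. In T3M-4 the HMOX1 call was lost when any of 11 libraries was left out (adjusted p up to 0.175), the AKR1B10 call without either sgRosa library of experiment 1 (adjusted p = 0.101 and 0.0923) and the SLC7A11 call without replicate 2 of them (adjusted p = 0.0511). Without sgKLF5 replicate 2 of experiment 1, GCLM and TXNRD1 differed as well, by 0.58 and 0.54 (adjusted p = 0.00862 and 0.0236).

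Knockout of RUVBL1 or RUVBL2 also moved members in both directions. RUVBL1 loss gave 17 higher and 10 lower calls in 45 tests, and RUVBL2 loss 9 higher and 4 lower in 36. SLC7A11 rose in 4 of 5 RUVBL1 comparisons, and GPX2 fell in 3 of 5 RUVBL1 and 2 of 4 RUVBL2 comparisons. In CFPAC-1, RUVBL1 loss gave lower calls only. The difference between these knockouts and KLF5 loss was not tested.

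These counts stood against large shares of all genes. For RUVBL1 in AsPC-1, 5 of 9 members rose and 1 fell in experiment 2, against 30% and 25.8% of all genes, and 6 rose and 1 fell in experiment 3, against 36.6% and 15.2%. In T3M-4, 5 rose and 2 fell, against 45.9% and 14.6%, in BxPC-3 1 rose and 0 fell, against 8.29% and 7.67%, and in CFPAC-1 0 rose and 6 fell, against 6.54% and 37.3%. For RUVBL2, 5 rose and 1 fell in AsPC-1, against 32.2% and 11%, and 4 rose and 2 fell in T3M-4, against 39.3% and 15.2%. In BxPC-3 no member was called, against 4.27% and 5.48%, and in CFPAC-1 0 rose and 1 fell, against 2.83% and 9.26%. The median of all genes was itself shifted, by 0.25 and 0.19 in T3M-4, 0.16 and 0.13 in AsPC-1 experiment 3 and -0.20 in CFPAC-1 for RUVBL1. Under median-of-ratios scaling, which takes such shifts out, 1 member was higher in T3M-4 for RUVBL1 in place of 5 and for RUVBL2 in place of 4, 3 were higher in AsPC-1 experiment 3 for RUVBL1 in place of 6, and 1 was lower in CFPAC-1 for RUVBL1 in place of 6. Of 13246 genes in T3M-4, 3495 were then higher for RUVBL1 and 3272 for RUVBL2. For RUVBL1, 2869 of 12224 genes were higher in AsPC-1 experiment 3 and 2158 of 12748 lower in CFPAC-1.

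SLC7A11 was at 16.5, 21.7, 22.5 and 29.4 TPM in sgRosa and 36.6, 38.7, 39.7 and 40.9 TPM in sgRUVBL1 of AsPC-1 experiment 2 (log2 fold change 0.79, SE 0.14, adjusted p = 0.000185). In experiment 3 it went from 24.6, 33.6, 34.4 and 45.6 TPM to 59.96, 73.6, 93.3 and 99.2 TPM in sgRUVBL1 (1.22, SE 0.16, adjusted p = 6.65e-06) and to 77.0, 84.3, 87.7 and 99.0 TPM in sgRUVBL2 (1.33, SE 0.16, adjusted p = 6.5e-06). Both knockouts thus lay wholly above the shared sgRosa libraries. In BxPC-3 it rose with RUVBL1 loss from 44.7, 47.1, 50.7 and 54.6 TPM to 63.5, 68.2, 69.4 and 83.7 TPM (0.52, SE 0.14, adjusted p = 0.0171; 0.0677 without sgRUVBL1 replicate 2 and also lost without sgRosa replicate 2), and the 3 sgRUVBL2 libraries, at 50.3, 60.8 and 94.5 TPM, gave 0.42 with adjusted p = 0.0799. In T3M-4 the rise with RUVBL1 loss was 0.46 (SE 0.14, adjusted p = 0.0074), and 0.17 with adjusted p = 0.234 after scaling.

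GPX2 in AsPC-1 experiment 3 was at 14.5 to 21.9 TPM in sgRosa, at 2.38, 3.71, 5.36 and 6.41 TPM in sgRUVBL1 (log2 fold change -1.82, SE 0.23, adjusted p = 4.26e-06) and at 5.88, 7.02, 10.3 and 12.6 TPM in sgRUVBL2 (-0.95, SE 0.23, adjusted p = 0.00283). In T3M-4 it fell from 127, 127, 142 and 166 TPM to 83.9, 91.9 and 104 TPM in sgRUVBL1 (-0.58, SE 0.10, adjusted p = 6.59e-05) and to 94.4, 97.04, 101 and 104 TPM in sgRUVBL2 (-0.49, SE 0.09, adjusted p = 0.000177). No knockout library of either line reached the lowest sgRosa library. The small fall of GPX2 in AsPC-1 experiment 2 (-0.34, adjusted p = 0.0449) was lost without any 1 of 7 of its libraries (adjusted p up to 0.127). BxPC-3 had overlapping groups, at 127, 149, 167 and 169 TPM in sgRosa and 134, 144, 150 and 158 TPM in sgRUVBL1.

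AKR1B10 again went both ways. With RUVBL1 loss it rose in AsPC-1 experiment 3 from 35.8 to 44.9 TPM to 65.7, 69.3, 71.0 and 78.8 TPM (log2 fold change 0.89, SE 0.11, adjusted p = 3.4e-06). In T3M-4 it fell from 33.0 to 38.6 TPM to 9.61, 12.6 and 13.8 TPM (-1.51, SE 0.11, adjusted p = 1.1e-08), and with RUVBL2 loss to 8.86, 9.38, 9.40 and 10.2 TPM (-1.81, SE 0.10, adjusted p = 6.79e-10). TXNRD1 rose in both lines for both genes, by 0.41 to 0.77. HMOX1, which KLF5 loss raised in AsPC-1 experiment 3, was at 3.72, 4.10, 4.65 and 6.07 TPM in sgRUVBL1 and 4.23, 5.13, 6.52 and 7.08 TPM in sgRUVBL2 beside 4.13 to 6.26 TPM in sgRosa, with overlap.

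In CFPAC-1, GCLM fell with RUVBL1 loss from 13.4, 15.9, 19.7 and 26.4 TPM to 8.94, 9.21, 9.71 and 11.2 TPM (log2 fold change -0.85, SE 0.15, adjusted p = 0.000583). GCLC, TXNRD1, SRXN1, AKR1C1 and SLC7A11 fell by 0.35 to 0.54. Without the library labelled sgRosa replicate 2, GCLM was at -0.68 (adjusted p = 0.00109), TXNRD1 at -0.31, GCLC at -0.27, SRXN1 at -0.25, AKR1C1 at -0.20 (adjusted p = 0.0425) and GPX2 at -0.30 (adjusted p = 0.00243), while SLC7A11 at -0.31 lost its call (adjusted p = 0.0854). The only call for RUVBL2, GCLM at -0.65 (adjusted p = 0.0342), was -0.48 with adjusted p = 0.059 without it. The difference between CFPAC-1 and the other lines was not tested.

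The knockouts of the partner ATPases were also compared directly, without control libraries. Of 36 tests, 1 gave a higher level in sgRUVBL2 and 0 a lower one, against 0.538% and 0.379% of all genes over the 4 comparisons. This was GPX2 in AsPC-1 experiment 3, higher by 0.88 in sgRUVBL2 (SE 0.23, adjusted p = 0.0398), and the call of GPX2 was lost when any of 4 libraries was left out (adjusted p up to 0.151).

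In empty-vector cells, CB-6644 lowered GPX2 in both lines. In AsPC-1 it was at 1.44, 2.11 and 2.94 TPM in CB-6644 and at 8.23 TPM in the DMSO library of the same vector and 9.67 and 9.87 TPM in those of A62T and dF109 (log2 fold change -1.72, SE 0.16, adjusted p = 2.03e-06). In T3M-4 it was at 135, 143 and 161 TPM in CB-6644 and 219, 171 and 207 TPM in DMSO (-0.43, SE 0.11, adjusted p = 0.00918). Against its own DMSO library alone, the change was -1.57 in AsPC-1 and -0.58 in T3M-4. Such values against 1 library are given as descriptions. By count, 2 members rose and 2 fell in AsPC-1, against 47.2% and 17.2% of all genes, and 1 rose and 4 fell in T3M-4, against 19.1% and 15.2%. Under median-of-ratios scaling 1 rose and 5 fell in each line. Of all genes, 3128 rose and 4472 fell of 12257 in AsPC-1 under that scaling, and 2205 and 3367 of 13402 in T3M-4.

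The other calls in empty-vector cells depended on the DMSO libraries, which differed between vectors. In AsPC-1, SLC7A11 rose from 51.2, 67.4 and 73.6 TPM to 94.1, 99.8 and 111 TPM (log2 fold change 0.67, SE 0.11, adjusted p = 0.000169; 0.58 against its own DMSO library), and AKR1B10 fell from 72.3, 73.8 and 86.9 TPM to 45.1, 49.5 and 50.1 TPM (-0.67, SE 0.07, adjusted p = 6.99e-06; -0.84 against its own). The rise of TXNRD1 in AsPC-1, 0.31 with adjusted p = 0.0206, was -0.02 against its own DMSO library. In T3M-4, TXNRD1 rose from 123 TPM in its own and 227 and 189 TPM in the other DMSO libraries to 269, 284 and 306 TPM (0.71, SE 0.17, adjusted p = 0.00688; 1.22 against its own). GCLC fell to 31.9, 33.7 and 35.3 TPM from 43.6 TPM in its own and 72.4 and 50.9 TPM in the others (-0.68, SE 0.14, adjusted p = 0.00375; -0.36 against its own). The falls of GCLM (-0.82) and HMOX1 (-0.69) in T3M-4 were -0.20 and 0.02 against its own library.

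In cells with the resistant variants, the change of GPX2 in AsPC-1 was smaller. GPX2 was at 5.50, 5.57 and 6.49 TPM with A62T (log2 fold change -0.58, SE 0.16, adjusted p = 0.0332; up to 0.0988 without any 1 of 5 libraries) and at 3.62, 4.32 and 5.07 TPM with dF109 (-0.95, SE 0.16, adjusted p = 0.002). Tested directly in CB-6644, it was higher than in empty-vector cells by 1.14 with A62T (SE 0.16, adjusted p = 9.57e-05) and by 0.77 with dF109 (SE 0.16, adjusted p = 0.00157). The DMSO libraries of the 3 vectors lay close together for this gene, at 8.23, 9.67 and 9.87 TPM. In T3M-4, GPX2 was at 161, 189 and 194 TPM in CB-6644 with A62T (-0.13, adjusted p = 0.311, and -0.52 with adjusted p = 0.0471 under scaling) and at 151, 155 and 162 TPM with dF109 (-0.34, SE 0.11, adjusted p = 0.0282; up to 0.0912 without any 1 of 5 libraries). Against empty-vector cells in CB-6644 GPX2 was higher with A62T by 0.30 (adjusted p = 0.0337), a call lost under scaling (0.02) and without any 1 of 4 libraries (adjusted p up to 0.117), and with dF109 the difference was 0.09 with no call. SLC7A11 rose in AsPC-1 with A62T by 0.56 (SE 0.11, adjusted p = 0.0121; 0.35 against its own DMSO library) and with dF109 by 0.53 (SE 0.11, adjusted p = 0.0046; 0.84 against its own).

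By count, CB-6644 in AsPC-1 cells with A62T gave 1 higher and 1 lower member, against 10.8% and 1.98% of all genes, and with dF109 1 and 2, against 29.3% and 4.1%. In T3M-4, A62T gave 6 higher and 0 lower, against 45.4% and 4.6%, and dF109 2 and 1, against 34.3% and 3.34%. Against empty-vector cells in CB-6644, A62T in AsPC-1 gave 2 higher and 1 lower, against 18.9% and 32.3%, and dF109 1 and 2, against 20.9% and 26.3%. In T3M-4, A62T gave 7 higher and 1 lower, against 41.4% and 9.21%, and dF109 5 and 0, against 29.8% and 4.86%. Under median-of-ratios scaling the higher and lower members in AsPC-1 were 1 and 2 for CB-6644 with A62T and 1 and 7 with dF109, and against empty-vector cells 4 and 0 with A62T and 2 and 2 with dF109. For all 12257 genes the counts in that order were 651 and 1045, 1445 and 2429, 3707 and 2705, and 3481 and 2707. In T3M-4 the members were 1 and 2 for CB-6644 with A62T and 2 and 2 with dF109, and against empty-vector cells 5 and 1 with A62T and 4 and 1 with dF109. For all 13402 genes the counts were 1380 and 2498, 1151 and 2129, 3040 and 2754, and 1904 and 1573. SLC7A11 was the 1 member still higher with A62T in T3M-4. Without that scaling the median of all genes there was shifted by 0.33.

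The widest gaps between vectors were in T3M-4. In CB-6644, GCLC was at 80.0, 80.2 and 82.4 TPM with A62T and 60.2, 61.2 and 62.3 TPM with dF109, against 31.9 to 35.3 TPM with the empty vector (log2 fold change 1.24 and 0.85, SE 0.14 in both, adjusted p = 0.000197 and 0.00317). GCLM was at 18.9, 19.0 and 19.7 TPM and 14.9, 15.1 and 15.8 TPM against 5.42, 6.29 and 6.90 TPM (1.49 and 1.18, SE 0.21 in both, adjusted p = 0.000491 and 0.00383). HMOX1 (1.46 and 1.07) and SRXN1 (1.18 and 0.73) were higher with both variants as well. The same order of vectors was present in DMSO, with GCLC at 72.4, 50.9 and 43.6 TPM, GCLM at 15.6, 13.9 and 7.25 TPM and HMOX1 at 9.38, 6.64 and 3.26 TPM for A62T, dF109 and the empty vector. With 1 DMSO library per vector, a difference between the vector cells that was there without CB-6644 and a difference in their response cannot be told apart from the comparison in CB-6644.

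**Figure D3:**
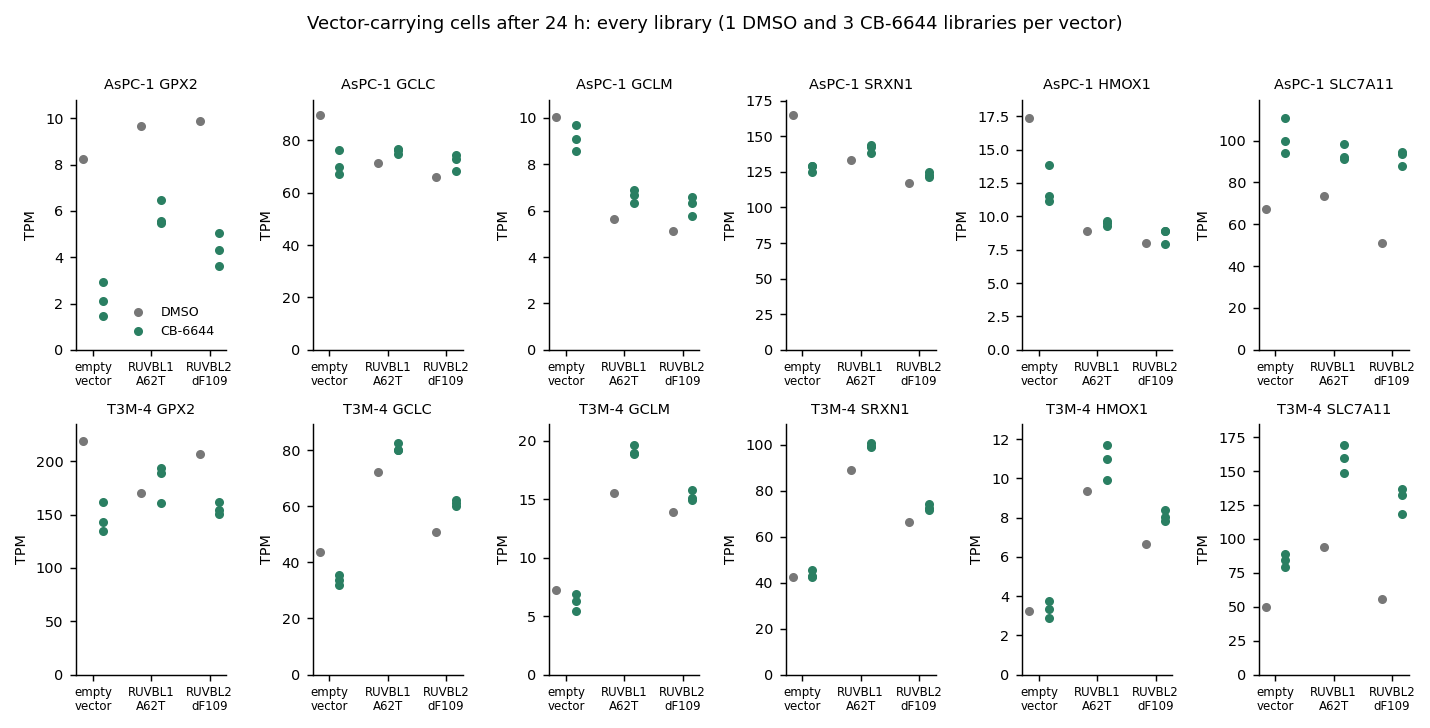
TPM of GPX2, GCLC, GCLM, SRXN1, HMOX1 and SLC7A11 (linear axes from 0) in empty-vector, RUVBL1 A62T and RUVBL2 dF109 cells of AsPC-1 (top) and T3M-4 (bottom); grey points are the DMSO library of each vector and green points the 3 CB-6644 libraries. GPX2 drops to 1.44 to 2.94 TPM in AsPC-1 empty-vector cells and less with the variants, while in T3M-4 the grey points of GCLC, GCLM, SRXN1 and HMOX1 already differ between vectors.

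In the 4 non-pancreatic lines, CB-6644 gave 7 higher and 18 lower calls in 31 tests. HMOX1 fell in all 4 lines. T84 had 2 higher and 5 lower members of 9, against 47.2% and 24.2% of all genes, and A375 had 2 and 5 of the 8 tested, against 51.5% and 29.7%. H1048 had 1 and 5 of 8, against 53.9% and 24%, and RH30 had 2 and 3 of 6, against 50.4% and 27.3%. Under median-of-ratios scaling the higher and lower members were 2 and 7 in T84, 2 and 6 in A375, 1 and 6 in H1048 and 1 and 4 in RH30. Over all genes the scaled counts were 3827 and 4798 of 12136 in T84 and 4846 and 5816 of 13249 in A375. They were 4834 and 5469 of 13715 in H1048 and 4268 and 4990 of 12153 in RH30. Members under a mean of 1 TPM were left out: GPX2 in A375, AKR1B10 in H1048, and GPX2, AKR1C1 and AKR1B10 in RH30.

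SLC7A11 responded most differently between the lines. In A375 it fell from 23.8, 25.8, 27.4 and 27.7 TPM to 4.52, 4.54, 4.92 and 4.96 TPM (log2 fold change -2.24, SE 0.06, adjusted p = 5.42e-11). It also fell in H1048, from 25.4, 26.5, 30.0 and 32.3 TPM to 17.8, 18.4, 19.6 and 20.1 TPM (-0.56, SE 0.07, adjusted p = 1.48e-05), and in RH30, from 2.60, 2.69, 2.88 and 3.13 TPM to 1.08, 1.15, 1.34 and 1.41 TPM (-0.77, SE 0.09, adjusted p = 4.17e-06). In T84 it rose, from 20.3, 23.3, 24.7 and 26.6 TPM to 38.9, 44.8, 45.9 and 46.1 TPM (0.87, SE 0.08, adjusted p = 7.31e-08). Treated and DMSO libraries did not overlap in any of the 4 lines.

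HMOX1 fell by 0.79 in T84, 0.83 in A375, 0.73 in H1048 and 0.26 in RH30 on the log2 scale (SE 0.08, 0.07, 0.06 and 0.05, adjusted p = 1.72e-07, 5.55e-07, 5.31e-07 and 0.000273). In A375 it went from 15.0, 16.7, 16.7 and 17.3 TPM to 7.70, 8.80, 8.81 and 9.87 TPM. TXNRD1 rose in T84 by 0.56, from 295, 297, 327 and 332 TPM to 439, 458, 462 and 482 TPM (SE 0.05, adjusted p = 3.36e-08), in H1048 by 0.29 and in RH30 by 0.15, the last a call that another scaling removed (-0.02, adjusted p = 0.623). In A375 it gave no call (-0.05), and -0.27 with adjusted p = 4.38e-06 after scaling.

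The 2 subunits of glutamate-cysteine ligase did not move together. In A375, GCLM fell from 26.7, 28.3, 28.4 and 29.1 TPM to 14.1, 14.7, 15.1 and 15.7 TPM (-0.87, SE 0.04, adjusted p = 7.31e-09), whereas GCLC went from 23.3, 24.7, 24.8 and 26.1 TPM to 22.3, 22.7, 22.7 and 23.0 TPM (-0.12, SE 0.04, adjusted p = 0.0158). In RH30, GCLC rose from 5.92, 6.58, 6.84 and 7.12 TPM to 9.45, 10.6, 11.1 and 11.1 TPM (0.60, SE 0.07, adjusted p = 3.96e-06), with GCLM at 0.01. SRXN1 rose in A375 by 0.38 (SE 0.05, adjusted p = 1.11e-05) and fell in T84 by 0.13 and in RH30 by 0.15, the RH30 call of SRXN1 being lost without any 1 of 6 libraries (adjusted p up to 0.11) and the T84 call without CB-6644 or DMSO replicate 2 (up to 0.0592). GPX2 fell in T84 by 0.20, from 841, 849, 864 and 903 TPM to 726, 742, 771 and 776 TPM (SE 0.04, adjusted p = 0.000158).

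The effect of CB-6644 differed between the 4 lines for 8 of the 9 members, against 86.2% of all genes, so this share is near the background. The range of the log2 fold changes was 3.11 for SLC7A11 (adjusted p = 2.43e-19), 1.03 for AKR1B10, 0.88 for GCLM, 0.86 for GCLC and 0.49 to 0.60 for AKR1C1, SRXN1, HMOX1 and TXNRD1. GPX2 gave no call (range 0.33, adjusted p = 0.271).

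**Figure D4:**
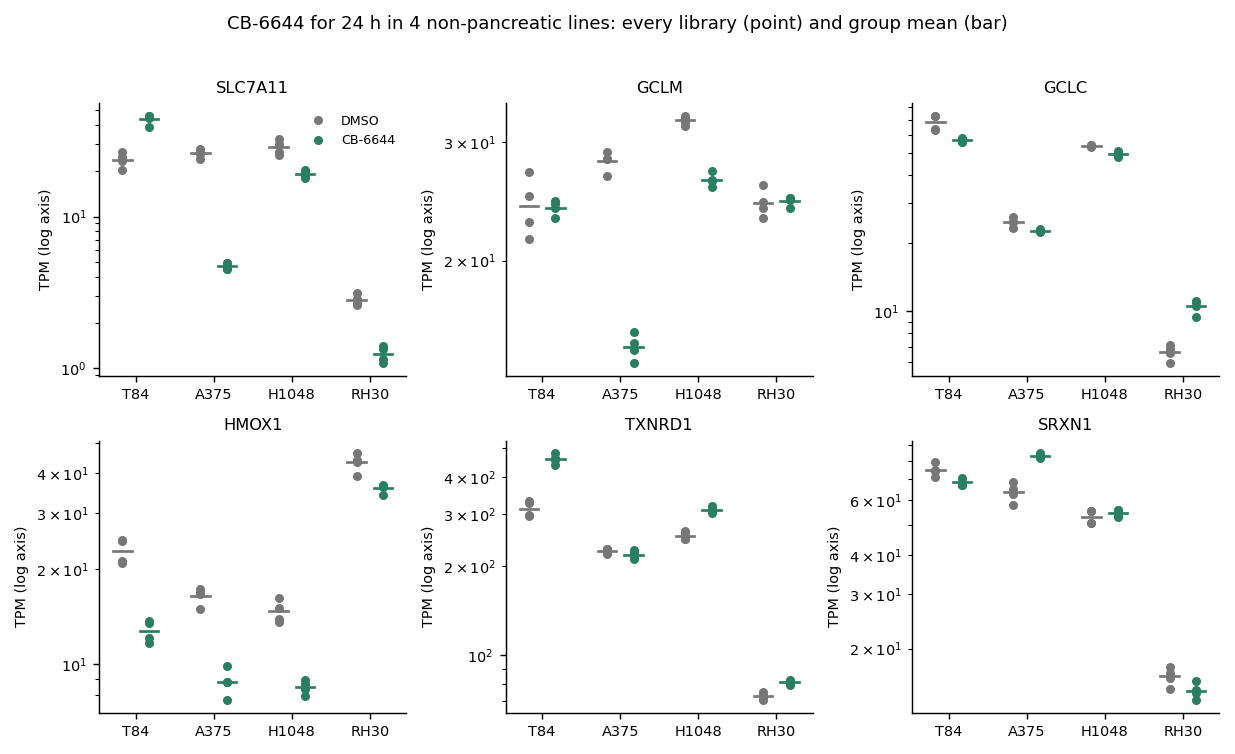
TPM on log axes of SLC7A11, GCLM, GCLC, HMOX1, TXNRD1 and SRXN1 in the 4 DMSO and 4 CB-6644 libraries of T84, A375, H1048 and RH30, each point a library and each bar a group mean. SLC7A11 drops in A375 from about 26.6 TPM (median) to under 5 TPM and rises in T84 to 38.9 to 46.1 TPM, and HMOX1 lies lower in CB-6644 in every line.

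The control knockouts are set beside the effects above, but not like for like. The sgCDK1 and sgRpa3 groups held 2 libraries each, fewer than any sgKLF5 group. No gene at all was called in CFPAC-1 for sgCDK1 or in T3M-4 experiment 1 for sgRpa3. For sgRpa3, 36 genes were higher and 2 lower in BxPC-3 experiment 1, and 78 and 2 in AsPC-1. In 10 comparisons of libraries labelled sgCDK1 or sgRpa3 with sgRosa, 7 of 90 tests were higher and 8 lower, against 6.46% and 3.37% of all genes. With the knockouts of CHD4 and SERPINB5 counted too, there were 8 higher and 13 lower, and 7 and 12 without the CFPAC-1 libraries labelled sgCDK1 and sgRpa3. SRXN1 fell in 4 of the 10, one of them the CFPAC-1 comparison labelled sgRpa3, and AKR1B10 went both ways, rising in AsPC-1 with CDK1 loss (log2 fold change 0.85, adjusted p = 0.000227) and in BxPC-3 experiment 2 with RPA3 loss (0.93, adjusted p = 0.00176) and falling in T3M-4 experiment 2 with both labels (-0.44 and -0.83). In that experiment RPA3 was at 67.5 and 77.3 TPM in the libraries labelled sgRpa3 and 69.9 and 79.1 TPM in sgCDK1. The sgRosa libraries held 80.6 to 105 TPM, and sgRpa3 of experiment 1 held 22.1 and 25.6 TPM. Whether RPA3 was lost there was not tested, and that comparison gave 1 higher and 3 lower members, beside 2441 and 821 of 13246 genes. HMOX1 rose with CDK1 loss in AsPC-1, from 4.13 to 6.26 TPM to 10.3 and 12.5 TPM (0.98, SE 0.21, adjusted p = 0.00335; 0.0867 without sgCDK1 replicate 1), beside 1.09 for KLF5 loss in that experiment. AKR1C1 rose with RPA3 loss in BxPC-3 experiment 2 to 255 and 284 TPM (0.89, SE 0.19, adjusted p = 0.0037; 0.0693 without sgRpa3 replicate 1), against 328 to 562 TPM with KLF5 loss. The difference between these knockouts and KLF5 loss was not tested.

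CHD4 loss in AsPC-1 gave 1 higher and 5 lower members, against 23.3% and 26.7% of all genes. GPX2 rose from 10.3, 10.9, 11.52 and 12.02 TPM to 22.5, 25.6, 25.6 and 31.6 TPM (log2 fold change 1.16, SE 0.10, adjusted p = 2.13e-06). SRXN1 (-0.56), GCLC (-0.55), HMOX1 (-0.65), AKR1C1 (-0.31) and AKR1B10 (-0.72) fell. SERPINB5 loss gave 0 higher and 0 lower members, against 0.0172% of all genes in each direction, so that calls were rare in that comparison as a whole.

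**Figure D5:**
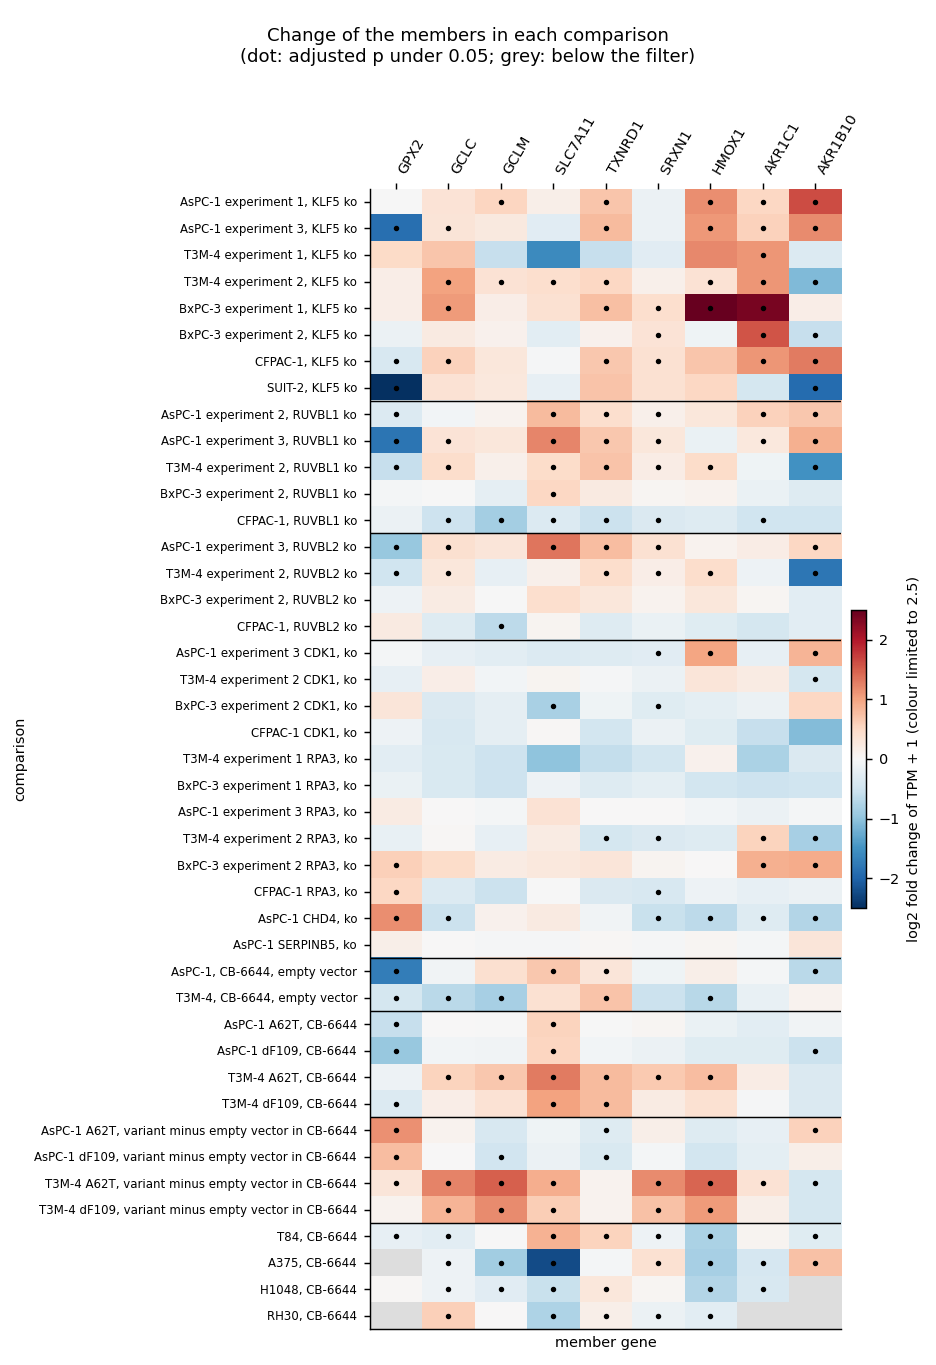
Log2 fold change of TPM + 1 (colour, red higher, blue lower, limited to 2.5 either way) of the 9 genes (columns) in every comparison except RUVBL2 against RUVBL1 (rows, grouped by kind), with a dot where the adjusted p was under 0.05 and grey where the gene was below the filter. AKR1C1 is red across the KLF5 rows except SUIT-2, AKR1B10 is red in AsPC-1 and blue in T3M-4 in the KLF5, RUVBL1 and RUVBL2 rows, and SLC7A11 in A375 is the deepest blue of its column at -2.24.

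Other genes of the pathway were read from lists of regulators (8 genes), other NRF2 targets (23), other antioxidant enzymes (11) and ATF4-driven genes (7 of 8 measured). With KLF5 loss the other NRF2 targets had 13 of 21 higher and 0 lower in BxPC-3 experiment 1, against 8.09% and 8.1% of all genes, and 5 and 3 of 21 in experiment 2, against 21% and 13.6%. In T3M-4 they had 9 and 0 of 23 in experiment 1, against 3.26% and 2.46%, and 13 and 3 of 22 in experiment 2, against 23.4% and 11.2%. CFPAC-1 had 11 and 2 of 22, against 3.26% and 13%. In AsPC-1 they had 5 and 3 of 22 in experiment 1, against 17.1% and 8.81%, and 6 and 5 of 22 in experiment 3, against 15.4% and 12.3%, and in SUIT-2 1 and 3 of 22, against 2.94% and 1%. These list counts were not repeated under median-of-ratios scaling, where 1202 of 12636 genes rose in T3M-4 experiment 1 and 1075 of 12748 in CFPAC-1. The regulators had 5 of 8 higher and 0 lower in T3M-4 experiment 2 and no more than 2 calls in either direction in each of the other 7 comparisons. AKR1C2 and AKR1C3, neighbours of AKR1C1, rose in BxPC-3 experiment 1 by 1.84 and 1.70 (adjusted p = 6.08e-07 and 2.29e-06). ALDH3A1, an aldehyde dehydrogenase, went the other way, falling by 1.5 in AsPC-1 experiment 3 (adjusted p = 3.54e-09), by 1.74 in BxPC-3 experiment 2 (adjusted p = 3.77e-07) and by 2.78 in SUIT-2 (adjusted p = 0.00201). In AsPC-1 experiment 1, ME1, a source of NADPH, rose by 1.17 and UGDH by 0.97 (adjusted p = 0.000114 and 3.18e-05). Of the other antioxidant enzymes, 5 of 10 rose in AsPC-1 experiment 1 and in BxPC-3 experiment 1, with 1 and 0 lower, and 3 of 10 rose and 1 fell in AsPC-1 experiment 3. In T3M-4 experiment 1 and SUIT-2 none of 11 was called, and in CFPAC-1 1 rose. In T3M-4 experiment 2, 4 of 11 rose and 1 fell, and in BxPC-3 experiment 2, 3 of 11 rose and 1 fell, SOD2, the mitochondrial superoxide dismutase, rising by 1.70 and 1.72. SOD2 rose against the same T3M-4 sgRosa libraries with RUVBL1 and RUVBL2 loss too, by 1.79 and 1.63. In the libraries labelled sgRpa3 and sgCDK1 there it rose by 0.83 and 0.525, and with RUVBL2 loss in BxPC-3 by 0.74.

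With RUVBL1 loss the regulators had 4 of 8 higher and 1 lower in AsPC-1 experiment 2, 6 and 1 in experiment 3, 7 and 0 in T3M-4, 3 and 0 in BxPC-3 and 1 and 3 in CFPAC-1. The other NRF2 targets had 9 and 9 of 22, 7 and 7 of 22, 4 and 8 of 22, 2 and 1 of 21 and 0 and 9 of 22 in the same order. The shares of all genes in that order were 30% and 25.8%, 36.6% and 15.2%, 45.9% and 14.6%, 8.29% and 7.67%, and 6.54% and 37.3%. MAFF, a partner of NRF2, rose in T3M-4 by 1.98 with RUVBL1 loss and by 1.78 with RUVBL2 loss (adjusted p = 1.38e-10 and 2.38e-10). OSGIN1, an oxidative stress-induced growth inhibitor, rose in AsPC-1 with RUVBL1 loss by 1.61 and 1.17 in experiments 2 and 3 (adjusted p = 8.71e-09 and 3.54e-06). In experiment 3 ALDH3A1 moved further and the other way. It fell by 1.23 with RUVBL1 loss and by 1.13 with RUVBL2 loss (adjusted p = 8.01e-08 and 7.39e-07), where OSGIN1 rose by 0.95 with RUVBL2 loss. In CFPAC-1, ABCC1 fell by 1.29 and ME1 by 1.1. NFE2L2 itself, named here after its values were seen, rose with RUVBL1 loss in T3M-4 by 0.42 (0.13 after scaling) and with KLF5 loss only in T3M-4 experiment 2 of the 8 comparisons, by 0.28 (0.14 after scaling).

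The ATF4-driven genes were examined because SLC7A11 is one of them. With RUVBL1 loss, 3 of 7 rose and 2 fell in AsPC-1 experiment 2, against 30% and 25.8% of all genes. In AsPC-1 experiment 3, 2 rose and 2 fell, against 36.6% and 15.2%, and in T3M-4 2 and 3, against 45.9% and 14.6%. BxPC-3 had 4 and 0, against 8.29% and 7.67%, and CFPAC-1 0 and 2, against 6.54% and 37.3%. With CB-6644, 5 of 7 fell and 2 rose in A375, against 29.7% and 51.5% of all genes, where DDIT4 fell by 2.45 and CHAC1 by 1.79 (adjusted p = 6.81e-12 and 2.44e-06). T84 had the same counts, against 24.2% lower and 47.2% higher, with DDIT4 at -1.19 (adjusted p = 8.54e-11), although its SLC7A11 rose. H1048 also had 5 lower and 2 higher of 7, against 24% and 53.9%, and RH30 3 lower and 2 higher of 6, against 27.3% and 50.4%. Empty-vector cells had 1 lower and 3 higher in AsPC-1, against 17.2% and 47.2%, and 5 lower and 0 higher in T3M-4, against 15.2% and 19.1%. In CB-6644, CHAC1 was lower in variant than in empty-vector cells of AsPC-1, at a log2 fold change of -1.42 with A62T and -1.98 with dF109 (adjusted p = 0.00612 and 0.000829), and higher in T3M-4, by 2.19 and 1.57 (adjusted p = 0.000158 and 0.00204). Of the 7 genes, 1 was higher and 6 lower with each variant in AsPC-1, against 18.9% and 32.3% of all genes with A62T and 20.9% and 26.3% with dF109. In T3M-4, 6 and 5 were higher with A62T and dF109 and 0 lower, against 41.4% and 29.8% higher. The DMSO libraries of the 3 vectors also differed in these genes. In AsPC-1 they ranged from 5.47 to 24.3 TPM for SESN2 and from 58.8 to 206 TPM for DDIT4. In T3M-4 they ranged from 15.1 to 35.2 TPM for CHAC1. A difference between vector cells that was there without CB-6644 thus cannot be told apart from a difference in response.

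The members were also compared with each other and with all genes across the 127 libraries that are no controls, each value taken relative to its own controls. These libraries share controls, lines and treatments, so the correlations describe the table and carry no p. Among members, GCLM and TXNRD1 were most alike (Pearson r 0.71), followed by HMOX1 and AKR1C1 (0.65) and GCLC and SRXN1 (0.64), and GPX2 and TXNRD1 were least alike (-0.42). Over 10682 genes, AKR1C1 was most like AKR1C2 (0.91) and AKR1C3 (0.89), with which it shares sequence, and then FTL (0.77). SLC7A11 was most like FGD4 (0.81), DDX6 (0.80) and SLC38A1 (0.79), TXNRD1 like RNF115 (0.80), FBXW11 (0.79) and OSGIN2 (0.79), and GCLM like UBE2K (0.78). GPX2 was most like S100P (0.70), SLPI (0.63) and IL20RA (0.60), and AKR1B10 reached no more than 0.59, with AKR1B15.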

How the data were processed

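RNA-seq of 183 libraries was used (TRIzol RNA, poly-A, TruSeq RNA kit v2, single-end reads). The authors quantified reads with kallisto against hg38, summarised them to genes with tximport, removed low-abundance transcripts and deposited TPM in 8 tables. TPM give no counts back, so depth is unknown and a count test was replaced by limma 3.58.1 (R 4.3.3): log2(TPM + 1), genes of mean 1 TPM or more, empirical Bayes with trend, all libraries of a line and experiment in one fit, Benjamini-Hochberg adjustment over all genes and a threshold of 0.05. The script was tested on simulated data, in which 200 genes per comparison changed by 1 on the log2 scale. For KLF5 loss it found 96% of them in AsPC-1 experiment 3, 35.5% in SUIT-2 and 0% in T3M-4 experiment 1. It found 98.5% for RUVBL1 loss in CFPAC-1, and with CB-6644 87.5% in empty-vector T3M-4 and 100% in A375. Of the calls made, the share that were false was 2.54% in AsPC-1 experiment 3 and 0% in SUIT-2. It was 5.29% for RUVBL1 loss in CFPAC-1, 6.42% in empty-vector T3M-4 and 8.68% in A375, above the 0.05 aimed at. Effects were compared between lines or experiments by interaction terms. The members and lists were chosen with earlier results of these data known. All 9 measured members are named, and of the lists up to 2 genes per comparison that were called with the largest change and no overlap of groups, apart from those said to be chosen later. Alternatives were median-of-ratios scaling, other filters, a pseudocount of 0.1, 2-group fits, each vector's own DMSO library, a replicate block and leaving out each library. Same-numbered libraries were found to pair in 1 of 36 group pairs with 3 or more numbers. Figures used matplotlib 3.10.9.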

Additional observations from a re-analysis of the deposited data

Results flagged for a closer look

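In 10 of 270 sets of a gene in a group of 4 to 10 libraries, 1 library lay far from the others, a gap that chance gives in about 1 in 20 such sets. The CFPAC-1 library labelled sgRosa replicate 2 accounted for 4 of them, with GPX2 at 380 TPM, TXNRD1 at 316 TPM, AKR1C1 at 409 TPM and AKR1B10 at 504 TPM. In AsPC-1 experiment 3, AKR1B10 was at 105 TPM in sgKLF5 replicate 1 and at 44.9 TPM in sgRosa replicate 3. HMOX1 was at 12.5 TPM in T3M-4 experiment 1 sgKLF5 replicate 2. SRXN1 was at 92.2 TPM in AsPC-1 experiment 2 sgRUVBL1 replicate 1 and at 121 TPM in BxPC-3 experiment 2 sgKLF5 replicate 1, and GCLC at 55.9 TPM in AsPC-1 experiment 2 sgSERPINB5 replicate 4.

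The effect of KLF5 loss differed between lines (F test, limma) with a range of log2 fold changes of 3.22 for AKR1B10, 3.08 for GPX2, 2.01 for AKR1C1, 1.2 for HMOX1, 0.78 for GCLC and 0.53 for SRXN1. Between experiments of one line, the later effect minus that of experiment 1 was -1.88 for GPX2 in AsPC-1. In T3M-4 it was 2.01 for SLC7A11, -0.84 for HMOX1 and -0.78 for AKR1B10. In BxPC-3 it was -3.06 for HMOX1, -0.83 for GCLC, -0.82 for AKR1C1, -0.74 for AKR1B10 and -0.64 for TXNRD1. The effect of CB-6644 differed between the non-pancreatic lines with a range of 3.11 for SLC7A11, 1.03 for AKR1B10, 0.88 for GCLM, 0.86 for GCLC, 0.60 for TXNRD1, 0.57 for HMOX1, 0.53 for SRXN1 and 0.49 for AKR1C1. The causes of these differences were not tested.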

How the results depend on the processing

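TPM hold no depth, and each vector had 1 DMSO library. A filter at a mean of 5 TPM and a pseudocount of 0.1 reversed no test of a member and changed the outcome of 2 and 4 tests. Leaving out single libraries gave 4031 unchanged outcomes, called or not, with 202 calls lost, 63 gained and 2 reversed. Each test was counted once for every library left out.

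Under median-of-ratios scaling the direction turned for AKR1C1 in T84 (-0.12), GCLM in RH30 (-0.15), SRXN1 in H1048 (-0.17), TXNRD1 in RH30 (-0.0169) and SRXN1 in T3M-4 for RUVBL1 (-0.10) and RUVBL2 (-0.0503) loss. It also turned for differences of DMSO levels between lines: GCLM for H1048 minus A375 (-0.14), H1048 minus T84 (-0.11) and RH30 minus T84 (-0.18), SLC7A11 for H1048 minus A375 (-0.22) and H1048 minus T84 (-0.26), and TXNRD1 for H1048 minus A375 (-0.18). Against the own DMSO library alone it turned for HMOX1 in empty-vector cells of AsPC-1 (-0.49) and T3M-4 (0.0188) and for TXNRD1 in AsPC-1 with the empty vector (-0.0235) and dF109 (0.16). Without the empty-vector DMSO library of AsPC-1 it turned with A62T for GCLM (0.257) and TXNRD1 (0.155), whose values lay between -0.1667 and 0.257 and between -0.1282 and 0.155 when single libraries were left out.

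Counts of member calls that moved by more than 1.5 times were as follows. With scaling, CB-6644 gave 10 lower calls in empty-vector cells and 5 higher and 13 lower in variant cells, RUVBL1 loss 10 higher and 5 lower, and the control knockouts 5 higher. With only the 2 groups compared, CB-6644 gave 1 higher and 2 lower in empty-vector cells and 6 higher in variant cells, RUVBL1 loss 6 lower, and variant against empty-vector cells 10 lower. Without a filter that last count was 2. RUVBL2 against RUVBL1 gave 0 higher without a filter, with 2 groups or with the replicate block. The causes were not tested.

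Leaving out single libraries, where a lone remaining library was assumed to vary like the others, gave ranges of higher and lower calls of 26 to 32 and 5 to 7 for KLF5 loss, 16 to 18 and 6 to 10 for RUVBL1 (6 without CFPAC-1 sgRUVBL1 replicate 1), 7 to 11 and 3 to 5 for RUVBL2, 0 to 1 and 0 to 2 for RUVBL2 against RUVBL1, and 6 to 10 and 11 to 14 for the control knockouts. With CB-6644 they were 2 to 5 and 5 to 7 in empty-vector cells (5 higher without the AsPC-1 empty-vector DMSO library), 7 to 14 and 3 to 6 in variant cells, 12 to 15 and 2 to 5 for variant against empty-vector cells, and 7 to 7 and 17 to 18 in the non-pancreatic lines. Differing members numbered 8 to 8 for CB-6644 across lines, 5 to 7 for KLF5 across lines, 5 to 11 between experiments (5 without BxPC-3 experiment 1 sgRosa replicate 1) and 46 to 48 for DMSO levels.

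The replicate numbers paired the libraries in 1 of 36 group pairs with 3 or more shared numbers, and in 2 every library correlated best with its own number, so the numbers are not taken as a pairing. With the replicate block, variant against empty-vector cells gave 16 higher and 10 lower calls in place of 15 and 4, KLF5 loss 31 and 7, RUVBL1 loss 16 and 9, RUVBL2 loss 9 and 4, and the control knockouts 8 and 16. Alternatives that left out T3M-4 experiment 1 sgKLF5 replicate 2 with SUIT-2 sgRosa replicate 1, or the CFPAC-1 libraries labelled sgCDK1 and sgRpa3, were chosen after seeing the data. They reversed no member, the first adding 5 calls and the second removing 5.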
